A study of Mus musculus with 3 samples.

Results

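The genes described here encode telomerase, the enzyme that copies telomere repeats onto chromosome ends, and the proteins that cap those ends. They are 10 genes chosen by name: the telomerase genes Tert and Dkc1, the shelterin genes Terf1, Terf2, Terf2ip, Tinf2, Pot1a, Pot1b and Acd, and Ctc1 of the CST complex. Each of the 10 had 1 probe set that named no other gene, out of 19938 genes measured that way. Expression was measured on 3 single-colour arrays of wild-type bone marrow cells from C57Bl/6 mice aged 6 to 10 weeks, here called arrays 1, 2 and 3 after the replicate numbers of the labels. The cells, called KLS SLAM, had been sorted as lineage-negative, c-Kit-positive, Sca-1-positive, CD150-positive, CD48-negative and CD41-negative, a gate that enriches for haematopoietic stem cells. No second genotype, treatment or cell type was analysed here, and the labels do not say whether the arrays came from separate animals or pools, so spread between arrays may be technical.

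Telomeres are repeat arrays that shorten at each replication of the chromosome end. The reverse transcriptase TERT adds repeats by copying the template within the RNA subunit TERC, and dyskerin, encoded by Dkc1, binds and stabilises that RNA. Shelterin coats the repeats and hides them from DNA damage signalling, while the CST complex helps DNA polymerase alpha to fill in the complementary strand. Mice carry a pair of POT1 genes where humans have a single POT1. Loss of telomerase or shelterin function impairs blood formation. Expression arrays do not measure the activity of the enzyme.

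The sequences just upstream of 3 of these genes are shown because theirs were the windows that overlapped no annotated gene. They belong to a gene that was below the background limit on every array (Tert) and to a pair that was above it (Dkc1 and Terf2). RefSeq promoter entries of build GRCm38 were found for 9 of the 10 genes. Each line gives the 250 bases before the annotated start, 5′ to 3′ on the strand of the gene. Capitals mark 4 short motifs searched on both strands, so that a match may print as the reverse complement. The letters searched were GGGCGG for the GC box and CCAAT for the CCAAT box. Those of the E-box, the motif bound by MYC, were CACGTG, and the TATA box was searched as TATAAA.
Tert (chr13:73626661-73626910, plus strand): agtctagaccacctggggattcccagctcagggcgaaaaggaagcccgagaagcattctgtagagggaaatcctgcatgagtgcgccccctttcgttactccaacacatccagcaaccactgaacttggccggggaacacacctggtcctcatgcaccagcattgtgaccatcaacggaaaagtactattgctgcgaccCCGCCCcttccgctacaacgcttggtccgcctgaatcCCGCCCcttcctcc
Dkc1 (chrX:75095604-75095853, plus strand): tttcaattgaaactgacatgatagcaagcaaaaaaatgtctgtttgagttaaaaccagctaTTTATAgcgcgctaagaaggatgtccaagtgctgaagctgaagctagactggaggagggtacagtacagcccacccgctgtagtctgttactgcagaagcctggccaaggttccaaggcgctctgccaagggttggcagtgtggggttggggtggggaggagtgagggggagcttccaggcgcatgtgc
Terf2 (chr8:107096549-107096798, minus strand): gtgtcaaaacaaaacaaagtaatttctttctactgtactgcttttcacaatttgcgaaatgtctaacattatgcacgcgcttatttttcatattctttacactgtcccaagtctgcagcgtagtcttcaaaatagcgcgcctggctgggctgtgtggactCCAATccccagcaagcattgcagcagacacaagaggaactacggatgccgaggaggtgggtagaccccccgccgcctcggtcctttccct
The Tert window held 2 GC boxes, starting 51 and 14 bases before the start, and none of the other 3 motifs. The Terf2 window held 1 CCAAT box starting 90 bases before it, and the Dkc1 window 1 TATA box starting 189 bases before it. Over 32851 promoter entries, windows of this length held a GC box in 32.7%, a CCAAT box in 33.8%, an E-box in 6.02% and a TATA box in 12.4%. The G and C content was 57.2% for Tert, 52% for Dkc1 and 48.4% for Terf2, beside a median of 52.4% over all entries. Among the 9 genes with an entry, 4 had a GC box, 3 a CCAAT box, 1 an E-box (Ctc1) and 1 a TATA box. These matches describe letters in a window and were not tied to any measurement of binding.

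Levels are log2 of the deposited intensities. Because no detection calls were used, a background limit was set on each array from 1227 genes of smell, pheromone and taste receptors, which marrow cells should lack: their 95th percentile. It lay at 6.30 log2 for array 1, 5.98 for array 2 and 5.77 for array 3. A gene passing it on every array is called above the limit, and 7345 of the 19938 genes were (36.8%). A value below the limit does not show that a transcript is absent. Probe sets differ in affinity, so levels of different genes were not ranked. Of the markers of the gate, Kit at 10.01 ± 0.23 log2 (SD, n = 3) and Slamf1 at 6.51 ± 0.13 were above the limit, in the direction of the gate. Slamf1 cleared it on array 1 by 0.11 log2, less than its SD. Ly6a, the gene of Sca-1, had no probe set of its own. Itga2b, the gene of CD41, was also above the limit at 6.37 ± 0.14, although the cells were sorted as CD41-negative. Cd48, likewise selected against, read 4.61, 5.62 and 6.14 log2 on arrays 1, 2 and 3 and passed the limit on array 3. Of 7 measured stem cell markers 6 were above it, as were 6 of 8 granulocyte markers, with list means of 8.68, 9.32 and 9.37 log2 on arrays 1, 2 and 3. The means of single granulocyte markers ran from 6.18 to 12.37 log2. Of the other marker lists, 1 of 4 erythroid, 1 of 4 B cell, 1 of 5 T and NK cell, 2 of 5 monocyte and macrophage, 4 of 5 megakaryocyte and 4 of 7 cycling cell genes were above the limit.

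Of the 10 telomere genes 8 were above the background limit on every array, beside 36.8% of all genes. The exceptions were Tert, below the limit on every array, and Acd, which passed on array 3 only. Taken array by array, 8 passed on array 1, 8 on array 2 and 9 on array 3, beside 39.3%, 49.1% and 55.2% of all genes. The median of the 10 gene means was 6.82 log2, beside 5.96 over all genes, given as a description only, because affinities differ between probe sets. With the 99th percentile of the receptor genes as the limit, 5 of the 10 were above it (Dkc1, Terf1, Terf2, Pot1b and Ctc1), beside 17.4% of all genes. With the 90th percentile 9 were, Tert being the exception, beside 50.6%.

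**Figure D1:**
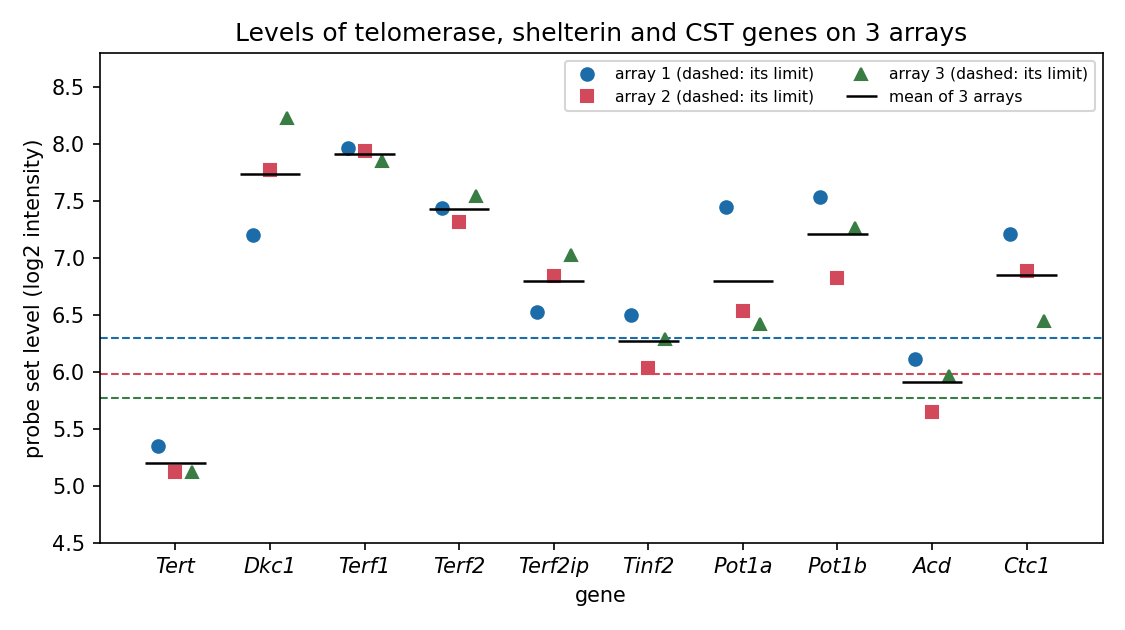
Level of each gene (log2 intensity of its probe set) on arrays 1, 2 and 3 (circles, squares, triangles), with the mean of the 3 arrays as a black bar and the background limit of each array as a dashed line in its colour. Tert lies under every limit, at 5.35, 5.12 and 5.12 log2, Acd lies around the limits, and the points of Pot1a and Dkc1 spread over more than 1 log2; heights of different genes are not comparable because probe sets differ in affinity.

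Tert, the catalytic subunit of telomerase (probe set 10406086), was not detected above the background of the arrays. Its level was 5.35, 5.12 and 5.12 log2 on arrays 1, 2 and 3, a mean of 5.20 ± 0.13 (SD, n = 3). These values lay 0.95, 0.86 and 0.65 log2 under the limits of the respective arrays. The 3 values sat close together, and Tert stayed below the limit also when it was set at the 90th percentile. Below all 3 limits lay 42% of all genes.

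Dkc1, which encodes dyskerin (probe set 10600485), was above the limit on every array and spread widely between them. It read 7.20, 7.77 and 8.23 log2 on arrays 1, 2 and 3, a mean of 7.73 ± 0.51 (SD, n = 3). Array 1 was the low one and array 3 the high one, 2.03-fold apart. Genes with means of 7 to 8 log2 had a median deviation from the gene mean of -0.06 on array 1 and 0.10 on array 3. Dkc1 deviated by -0.53 and 0.49. Rises and falls of single genes cancel in such a median, so it does not give their usual spread. The median SD of these genes was 0.32 log2, against 0.51 for Dkc1, which did not pass the test for variation between arrays. After quantile normalisation the difference between arrays 3 and 1 was 0.79 log2 for Dkc1, and after cyclic loess normalisation 0.81.

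The partners of dyskerin in the H/ACA particle, which holds the telomerase RNA, were above the limit on every array. Nop10 read 9.40, 10.07 and 10.56 log2 on arrays 1, 2 and 3, Nhp2 7.42, 7.35 and 7.81, and Gar1 7.28, 7.33 and 7.90. Like Dkc1, each had its highest value on array 3, where 29.8% of all genes had theirs. That was not particular to these partners. Of the 56 measured genes of the 5 wider lists described here and below, which include them, 26 were highest on array 3, 17 on array 1 and 13 on array 2. The granulocyte marker list had means of 8.68, 9.32 and 9.37 log2 on arrays 1, 2 and 3. Of its 8 genes, 3 were highest on array 3, 4 on array 2 and 1 on array 1. The part of that list in the differences of Dkc1 and its partners was not tested. Genes with means of 10 to 11 log2, the level of Nop10, had a median deviation of -0.20 on array 1 and 0.20 on array 3. At 7 to 8 log2, the level of Nhp2 and Gar1, it was -0.06 and 0.10. After quantile normalisation the difference between arrays 3 and 1 was 0.80 log2 for Nop10, 0.39 for Gar1 and 0.15 for Nhp2.

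Terc, the template RNA of telomerase, read 5.70, 6.13 and 5.67 log2 on arrays 1, 2 and 3. It passed the limit on array 2 only, by 0.15 log2. How the amplification primed RNA without a poly(A) tail is not given in the sources used here.

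Of the 11 measured genes of telomerase RNA and assembly 7 were above the limit on every array, 63.6% beside 36.8% of all genes. Besides Nop10, Nhp2 and Gar1 these included Ruvbl1 and Ruvbl2, ATPases that act in telomerase assembly. Ruvbl1 read 8.69, 8.88 and 9.42 log2 on arrays 1, 2 and 3, with an SD of 0.38, and Ruvbl2 was at 7.39 ± 0.33 (SD, n = 3). Parn, a poly(A)-specific ribonuclease that matures Terc, was at 7.28 ± 0.04 and Wrap53, which carries telomerase to Cajal bodies, at 6.44 ± 0.21. Naf1 and Shq1 encode assembly factors of H/ACA particles and Coil the Cajal body scaffold coilin. Naf1 was at 6.08 ± 0.32 and missed the limit on array 2, while Shq1 at 5.17 ± 0.29 and Coil at 5.25 ± 0.66 were under it on every array. Tep1 is not analysed here.

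Among the shelterin genes, 6 of 7 were above the limit on every array, beside 36.8% of all genes. Terf1 and Terf2 encode the proteins TRF1 and TRF2, which bind double-stranded telomere repeats. Terf1 (probe set 10344939) read 7.97, 7.94 and 7.85 log2 on arrays 1, 2 and 3, a mean of 7.92 ± 0.06 (SD, n = 3). Terf2 (probe set 10581523) read 7.44, 7.31 and 7.55 log2, a mean of 7.43 ± 0.12. The deposited values of both differed little between arrays. For Terf1 that depended on the scaling, since its SD was 0.21 log2 after quantile normalisation and 0.19 after cyclic loess normalisation.

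Terf2ip encodes RAP1, which is recruited to telomeres by TRF2 (probe set 10575619). It read 6.52, 6.84 and 7.03 log2 on arrays 1, 2 and 3, a mean of 6.80 ± 0.26 (SD, n = 3). Array 1 was its lowest, as for Dkc1, and cleared the limit there by 0.23 log2. With the 99th percentile as the limit Terf2ip was not above it.

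Tinf2 and Acd encode TIN2 and TPP1, the bridging subunits that join the double-strand binders to POT1; TPP1 also recruits telomerase. Tinf2 (probe set 10420097) read 6.50, 6.03 and 6.28 log2 on arrays 1, 2 and 3, a mean of 6.27 ± 0.24 (SD, n = 3). Its margin over the limit was 0.05 log2 on array 2, less than its SD between arrays. Acd (probe set 10581311) read 6.11, 5.64 and 5.97 log2, a mean of 5.91 ± 0.24. On arrays 1 and 2 it lay 0.19 and 0.33 log2 under the limit, and on array 3 it lay 0.20 over it. Acd thus lay on different sides of the limit on different arrays, and on arrays 1 and 3 it was nearer to the limit than its SD.

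Pot1a and Pot1b encode the mouse POT1 proteins that bind single-stranded telomere DNA; both were above the limit on every array. Pot1a (probe set 10543471) read 7.45, 6.54 and 6.42 log2 on arrays 1, 2 and 3, a mean of 6.80 ± 0.56 (SD, n = 3). Array 1 stood apart, 1.88-fold above array 2 and 2.04-fold above array 3, while arrays 2 and 3 differed by 1.09-fold. Pot1b (probe set 10451860) read 7.54, 6.82 and 7.27 log2, a mean of 7.21 ± 0.36. It too was highest on array 1, 1.64-fold above array 2, and array 3 lay nearer to array 1 in the deposited values. After quantile normalisation Pot1b read 7.65, 6.87 and 7.17 log2 and after cyclic loess normalisation 7.59, 6.85 and 7.19, with array 3 nearer to array 2 in both. Since the pair are paralogues, signal shared between their probe sets was not tested.

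Ctc1, the largest subunit of CST (probe set 10377380), read 7.21, 6.89 and 6.45 log2 on arrays 1, 2 and 3, a mean of 6.85 ± 0.38 (SD, n = 3). It was above the limit on every array, by at least 0.68 log2. Its partners Stn1 and Ten1 missed it on array 1. Stn1 was at 6.12 ± 0.26 and Ten1 at 6.11 ± 0.46.

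Of the 12 genes of CST and end processing, 4 were above the limit on every array, a share of 33.3% that is near the 36.8% of all genes. They were Wrn, a RecQ helicase, at 8.21 ± 0.11 log2, Pola1, the catalytic subunit of DNA polymerase alpha, at 7.57 ± 0.16, Dclre1b, the nuclease Apollo, at 6.80 ± 0.42, and the flap endonuclease Fen1 at 6.47 ± 0.52 (SD, n = 3). Fen1 cleared the limit by only 0.03 log2 on array 1 and 0.06 on array 2, less than its SD between arrays. The helicases Blm at 6.35 ± 0.65, Rtel1 at 5.88 ± 0.04, Pif1 at 5.93 ± 0.17 and Dna2 at 5.69 ± 0.19 passed it on some arrays. So did the exonuclease gene Exo1 at 5.75 ± 0.43 and the primase gene Prim1 at 6.18 ± 0.91. Prim1 read 6.39, 5.18 and 6.97 log2 on arrays 1, 2 and 3, a 3.45-fold span with array 2 low. The cycling cell markers had list means of 6.62, 6.46 and 6.77 log2 on arrays 1, 2 and 3. Of these 7 markers, 4 were lowest on array 2, 2 on array 1 and 1 on array 3. Their part in the values of Prim1 was not tested.

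**Figure D2:**
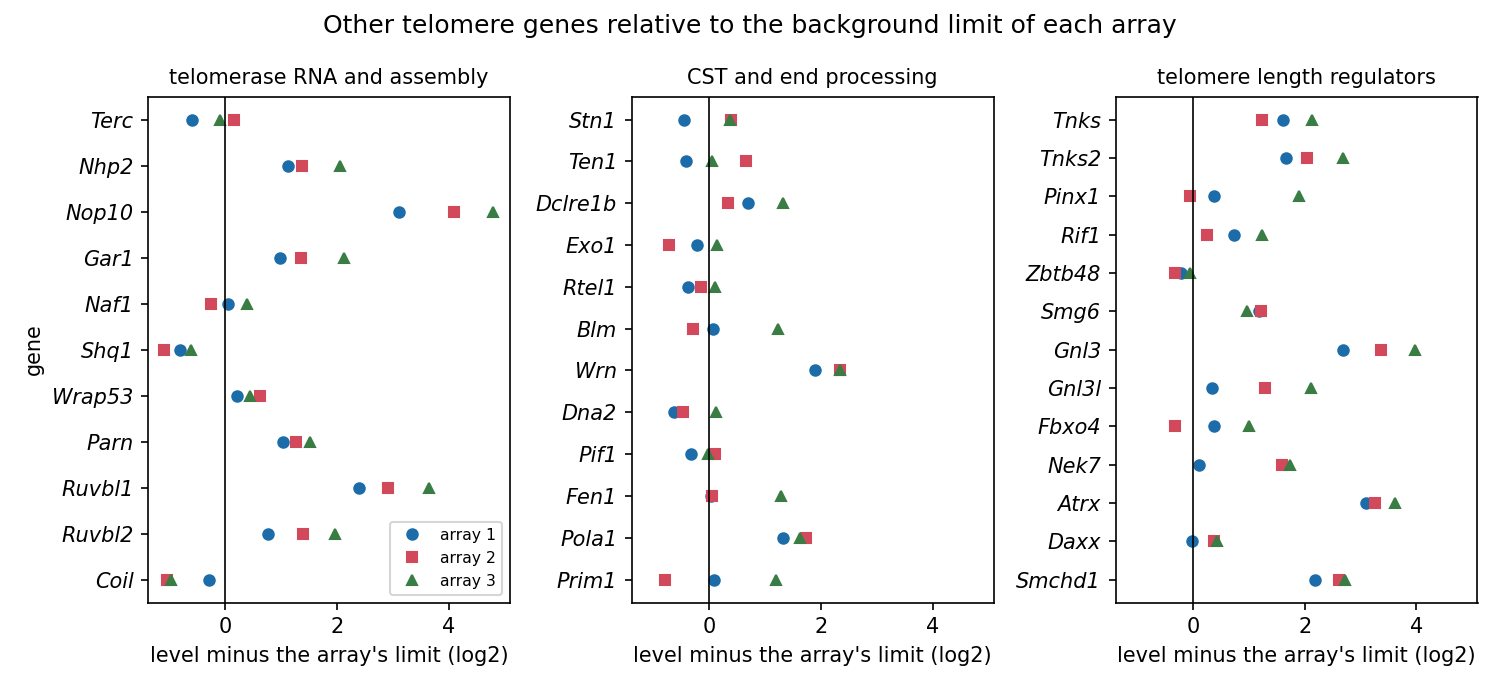
Level minus the background limit of the same array (log2), for each measured gene of 3 lists: telomerase RNA and assembly, CST and end processing, and telomere length regulators; circles, squares and triangles are arrays 1, 2 and 3, and the vertical line is the limit. All points of Nop10, Ruvbl1, Wrn, Gnl3 and Atrx lie right of the line, all points of Shq1, Coil and Zbtb48 lie left of it, and Prim1 and Pinx1 have array 2 left of it and the other arrays right of it.

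Genes that regulate telomere length were above the limit on every array in 9 of 13 measured cases, 69.2% beside 36.8% of all genes. Tnks and Tnks2, the tankyrases that release TRF1 from telomeres in human cells, were at 7.68 ± 0.40 and 8.15 ± 0.27 log2 (SD, n = 3). Rif1, which acts in replication timing and break repair, was at 6.75 ± 0.46, and Smg6, an RNA decay endonuclease also found at telomeres, at 7.13 ± 0.38. The nucleostemin family genes Gnl3 and Gnl3l, whose products bind TRF1, were at 9.36 ± 0.38 and 7.26 ± 0.62. The kinase gene Nek7 was at 7.16 ± 0.66, and the chromatin genes Atrx and Smchd1 were at 9.34 ± 0.09 and 8.52 ± 0.07.

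The other 4 length regulators missed the limit on at least 1 array. Pinx1, a telomerase inhibitor that also binds TRF1, read 6.67, 5.92 and 7.66 log2 on arrays 1, 2 and 3, with array 2 just under its limit. Fbxo4, which targets TRF1 for degradation, was at 6.36 ± 0.62 and Daxx, the partner of ATRX, at 6.28 ± 0.07 (SD, n = 3). Daxx missed the limit on array 1 only, by 0.02 log2. Zbtb48, which encodes the telomere-binding protein TZAP, was at 5.81 ± 0.23 and under the limit on every array. All 5 probe sets that the platform annotation gives for Hnrnpa1 name other genes too, and it is not analysed here.

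Damage signalling genes, which shelterin holds in check at chromosome ends, were above the limit on every array in 9 of 12 cases. The exceptions were Nbn at 6.84 ± 0.49 log2, and the checkpoint kinase genes Chek1 at 6.15 ± 0.92 and Chek2 at 5.63 ± 0.73 (SD, n = 3). Nbn missed the limit on array 1 only, by 0.006 log2, and lay 1.23 and 1.27 log2 over it on arrays 2 and 3. Chek1 read 6.48, 5.11 and 6.86 log2 on arrays 1, 2 and 3 and, like Prim1, was low on array 2. All 8 genes of the TRiC chaperonin, which folds the telomerase carrier encoded by Wrap53, were above the limit on every array, with means from 7.86 to 9.74 log2. Over the 5 lists 37 of 56 measured genes were above the limit, 66.1% beside 36.8% of all genes.

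None of the 10 genes passed the test for variation between arrays. Each gene's variance was set against the variance trend fitted with limma in a 1-sided F test, adjusted by Benjamini-Hochberg over 19938 genes. At 0.05, 0 genes passed. At an unadjusted p under 0.05 there were 1017 genes (5.1%), of which 0 were among the 10 and 7 among the 56 genes of the wider lists. The trend and the scatter around it were fitted to these same variances, so a total share near that threshold comes from the fit itself. The lowest p of the 10 was that of Pot1a, 0.102 (F test, adjusted p = 0.977), with an SD of 0.56 log2 where the trend gave 0.28. Dkc1 followed with 0.221 (F test, adjusted p = 0.994), an SD of 0.51 against 0.35. Of the 10 SDs 6 were above the trend, beside 43.8% of all genes, and their median was 0.25 log2 beside 0.22. With 3 arrays only large spreads could be called: in simulated data 41% of genes with an SD of 10 times the trend passed.

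**Figure D3:**
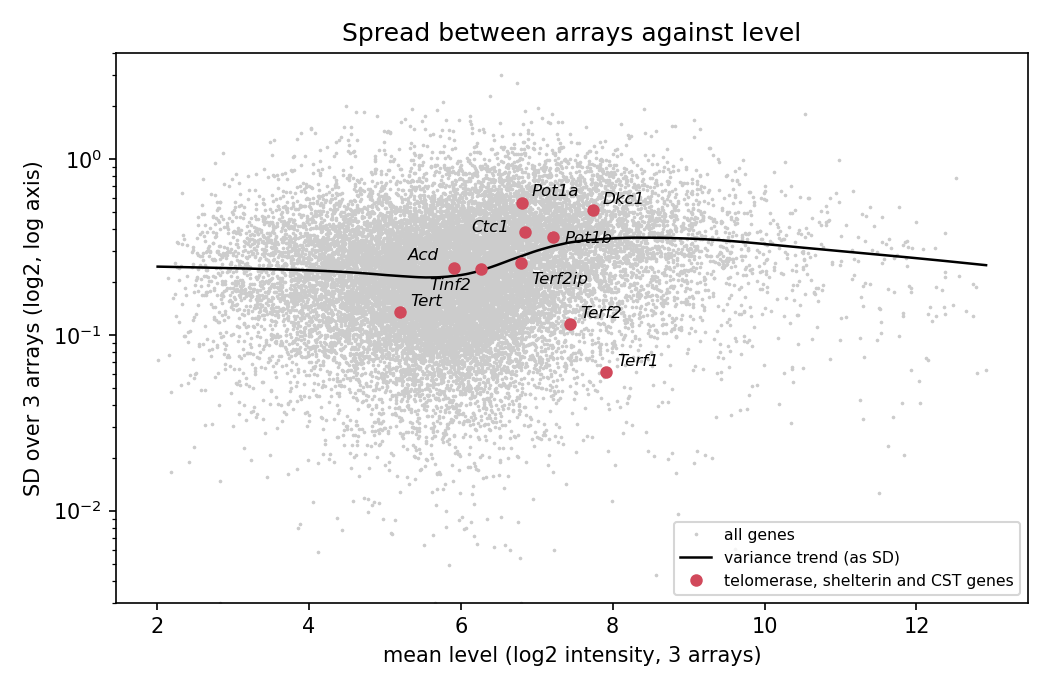
SD over the 3 arrays (log2, on a log axis) against mean level (log2 intensity) for all 19938 genes (grey points), the variance trend of the limma fit (black line) and the 10 telomerase, shelterin and CST genes (red). Pot1a at 0.56 and Dkc1 at 0.51 lie above the line and Terf2 at 0.12 and Terf1 at 0.06 below it, all within the cloud of other genes.

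Array 1 gave the highest value for 7 of the 10 genes: Tert, Terf1, Tinf2, Pot1a, Pot1b, Acd and Ctc1. Over all genes 31.6% were highest on array 1. Dkc1, Terf2 and Terf2ip were highest on array 3, and none was highest on array 2, where 38.6% of all genes were. After quantile or cyclic loess normalisation Terf2 joined the genes highest on array 1, which made 8. Array 1 also had the highest background limit, 6.30 log2 against 5.98 and 5.77, and the lowest mean of the granulocyte markers, 8.68 log2 against 9.32 and 9.37. The part of either in these differences was not tested.

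**Figure D4:**
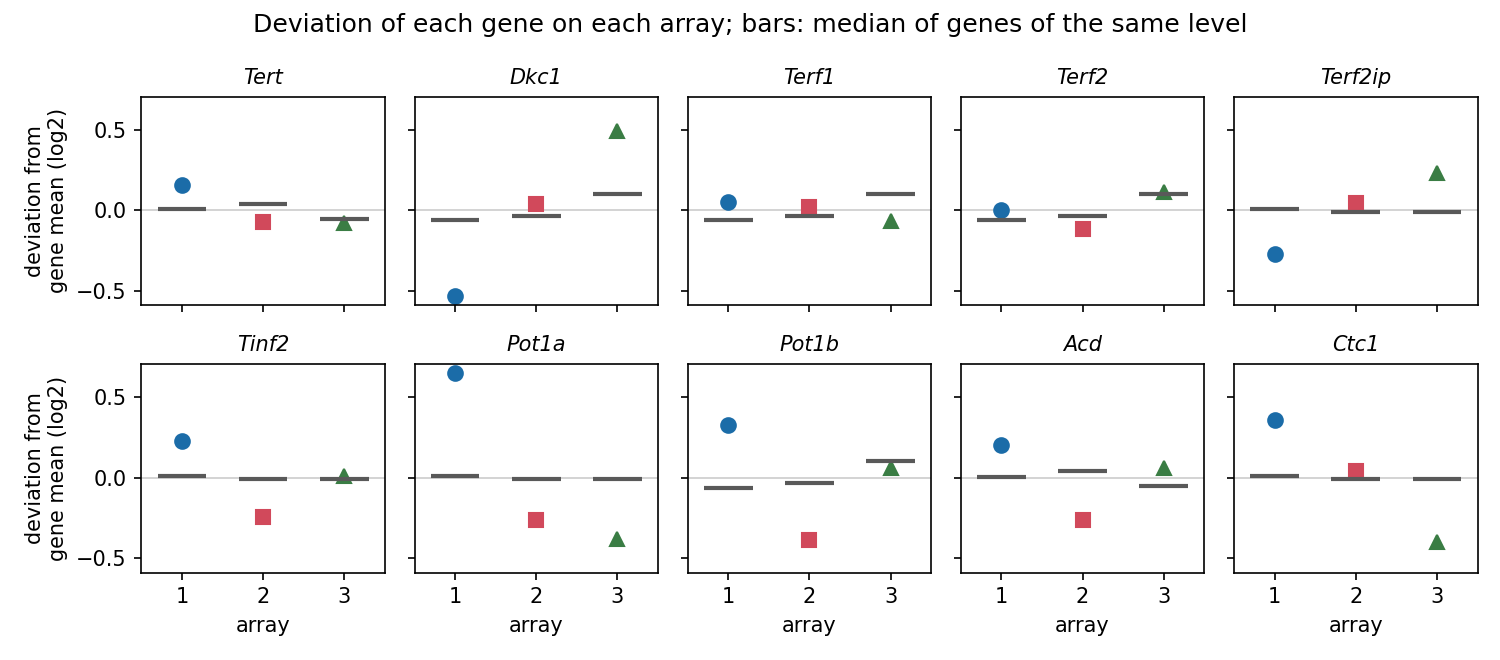
Deviation of each gene from its own mean (log2) on arrays 1, 2 and 3 (circle, square, triangle), with the median deviation of all genes in the same 1 log2 bin of mean level as a grey bar. Pot1a is 0.65 above its mean on array 1 where the bar lies at 0.01, and Dkc1 is 0.53 below its mean there and 0.49 above it on array 3. Rises and falls of single genes cancel in the bars, which therefore do not show the usual spread of a gene.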

How the data were processed

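Per the labels' protocols, RNA from the sort was prepared on columns, then amplified and labelled with biotin. The submitters' processing notes name RMA and Affymetrix Expression Console; their versions, and the arrays that RMA treated as 1 set, are not given in those sources. The authors' deposited values were read as linear intensity (2.82 to 18384, none below 0), and log2 was taken without a pseudocount. RMA gives the probe values of arrays run together a common distribution, yet the deposited summaries kept differences between arrays: median intensities were 60.4, 58.0 and 56.7, and bright genes lay lower on array 1 than on array 3.

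Of 35554 probe sets, 21789 named 1 gene in the platform annotation, 1621 named several and 12144 were not listed; only the first were used. Their log2 values were averaged per gene, giving 19938 genes, 999 of them with several probe sets. All 3 arrays form 1 group. A robust variance trend was fitted with limma 3.58.1 in R 4.3.3 (4.34 prior degrees of freedom). Variation was tested against it by an F test on 2 degrees of freedom, after a run on simulated data. The number of arrays limits the precision. Alternatives were 2 further normalisations, the brightest probe set, other background limits, a pseudocount of 16, other trend settings and leaving out each array. The 10 genes and the lists were chosen with earlier results of these data known. The text names all 10, every measured gene of the 3 telomere lists plotted, and the damage signalling and chaperonin genes on the rarer side of the limit. Measured marker genes beyond Kit, Slamf1, Itga2b and Cd48 are given as counts and list means, with a range of gene means for the granulocyte list.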

Additional observations from a re-analysis of the deposited data

How the results depend on the processing

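The count of 8 of the 10 genes above the background limit was the same after quantile and cyclic loess normalisation and with the mean level set against the mean limit. It was also the same without any 1 array, which can only add genes, and with the brightest probe set, which could act only through the limit since each of the 10 has 1 probe set. It was 9 with the 90th percentile and 5 with the 99th, when Terf2ip, Tinf2, Pot1a and Acd missed it along with Tert. Over all genes the 99th percentile gave 3469 in place of 7345. For the 56 genes of the wider lists the count of 37 ran from 25 to 47 over 9 alternatives. It was 25 with the 99th percentile, beside 17.4% of all genes, and 47 with the 90th, beside 50.6%. It was also 47 with the mean level set against the mean limit, beside 48.3%. Quantile normalisation moved the level of each of the 10 genes by less than its SD between arrays; the other alternatives tried for levels bound the move by construction and test nothing. None of the 10 passed the F test of variance in any of 88 tests, 1 for each gene and alternative that kept it. Adjusted p in these F tests ran from 0.866 to 0.9996, and 0 genes passed under each of the 9 alternatives. In each alternative the trend was again fitted to the variances that were then tested. The spread of Pot1a rested on array 1, since arrays 2 and 3 differed by 1.09-fold. Without array 1 the p was therefore bound to rise, to 0.757 by the F test (adjusted p = 0.998) in place of 0.102. That run had fewer arrays and a refitted trend, so these p-values are not on the same footing. No paired analysis was possible because all arrays belong to 1 group. Signal close to the limit, as for Tinf2 and Acd, limits what these arrays can show.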
